A study of Drosophila melanogaster with 12 samples.

Results

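Antisense RNA genes are non-coding genes annotated on the strand opposite a coding gene, with which they share genomic sequence. The 66 genes described here have a symbol that starts with asRNA in the BDGP6 annotation, lie on chromosome arm 2L (52 genes, up to position 22258266) or on 3L (14 genes, up to position 4919025), and had at least 20 reads on their own strand summed over all 12 libraries. They are 66 of the 113 antisense RNA genes annotated in these regions, among 5227 genes of every kind. Of the other 47, 38 had 1 to 19 reads and 9 had none. The lowest member, asRNA:CR44144, had 26 reads, and the highest gene below the limit, asRNA:CR44850, had 19. At 4 genes below the limit (asRNA:CR43936, asRNA:CR44872, asRNA:CR44969 and asRNA:CR45827) at least 20 further reads fell in the span but also in that of a gene on the same strand, so they were assigned to neither.

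Antisense transcripts are made when RNA polymerase II reads the strand opposite a gene, from a promoter of their own or past the end of a neighbour. Where an antisense RNA and an mRNA share sequence they can pair, and in flies paired strands are substrates of the Dicer enzymes and their partner proteins. An antisense RNA that is cleaved and given a poly(A) tail, as an mRNA is, appears in 3′ end sequencing as reads on its own strand, apart from those of the gene it overlaps.

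Poly(A) tail positions were mapped by 3′READS and 3′READS+, methods that capture and sequence RNA fragments at the junction with the tail, in dissected heads and bodies of adult Drosophila melanogaster. Wild-type flies were of the w1118 strain, and the mutants carried C4, an allele of RpII215, the gene of the largest RNA polymerase II subunit. The groups were wild-type heads (4 libraries), wild-type bodies (4), mutant heads (2) and mutant bodies (2). The labels give neither age nor sex. They do not say that replicates were separate animals either, so each p-value reflects the spread of these libraries alone, and that spread may be technical. In whole heads and bodies, fewer cells of a type and less RNA per cell cannot be told apart.

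Libraries held 2219693 to 9062730 reads, of which 289643 to 1256690 were assigned to 1 gene of the named regions. Wild-type replicates 1 and 2 have sample numbers far from those of wild-type replicates 3 and 4 and the mutant libraries. They are called the earlier and the later range. Photoreceptor markers (4 genes) summed to 23300 to 96400 CPM in wild-type heads, and in wild-type bodies to 3960 and 5540 CPM in the earlier range but to 27.5 and 61.1 in the later. CPM (counts of a gene relative to all counts of named genes, after TMM scaling of the library totals) is the unit of level used throughout, and as a measure of 3′ ends it does not grow with gene length. Male accessory gland and germline markers (7 of 9 lie in the regions) summed to 7250 to 9700 CPM in wild-type bodies, 7210 to 9010 in mutant bodies and 40.0 to 206 in wild-type heads. The part of these differences in the values of antisense RNA genes was not tested.

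The antisense RNA genes were short and lay mostly inside their coding partner, defined as the coding gene on the other strand with the longest overlap. Their median length was 974 nt (223 to 4902), and 38 had a single exon block. Of the 66, 39 were nested in the partner and overlapped an exon, 19 were head-to-head with it, 4 were tail-to-tail, 3 spanned it and 1 lay in its introns only. In all, 65 overlapped an exon of the partner and 56 (84.8%) its coding sequence, so that 55.1% of their bases lay over partner exons. For 6 of them several coding genes overlapped, and the 66 had 64 different partners.

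Their most used poly(A) positions rarely sat on an exon of the partner. In 48 genes that position lay within the partner's span, but in an exon in 10. It lay within 24 nt of an annotated end of the antisense RNA in 20 genes (30.3%), more than 24 nt upstream in 23 and more than 24 nt downstream in 23, with extremes of −3150 and 888 nt. For lncRNA genes with a like number of reads the share within 24 nt was 33.3% of 243, and for coding genes 70.8% of 1313. Several sites with at least 5% of the reads were used by 44 antisense RNA genes, and 13 start within 1000 nt downstream of another gene on the same strand. asRNA:CR44849 is such a case: it starts 67 nt past bgm, an acyl-CoA synthetase gene, and its most used position lies at −901 nt from its own annotated end (minus marks upstream) and 96 nt past the end of bgm. For such genes these counts do not separate RNAs that start at the antisense gene from extended RNAs of the neighbour.

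**Figure D1:**
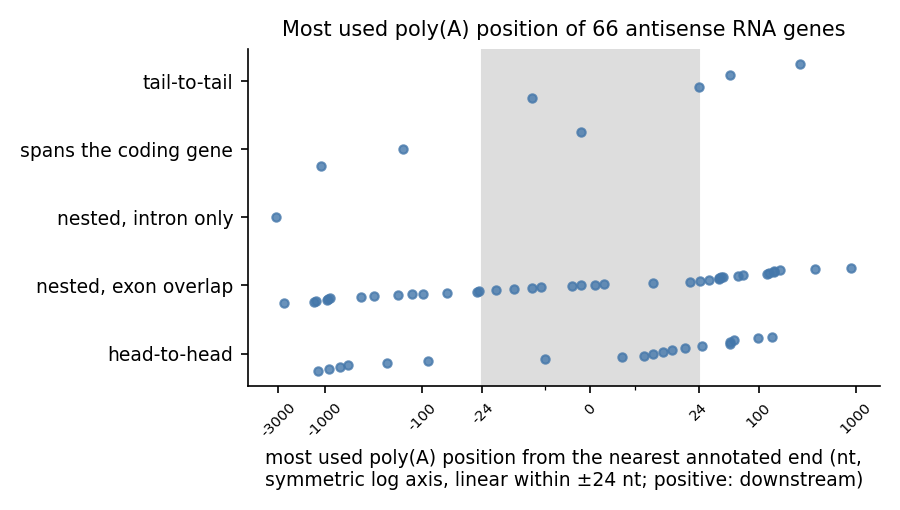
Distance in nt from the most used poly(A) position of each of the 66 antisense RNA genes to its nearest annotated transcript end (symmetric log axis), by arrangement with the coding partner; each point is a gene and the grey band marks ±24 nt. Of the points, 20 lie in the band, 23 upstream of it and 23 downstream.

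Antisense reads were few beside those of the partner. The 66 genes had 9988 reads in all, with a median of 82.5 and a highest total of 914 at asRNA:CR45686. In 56 pairs the antisense RNA had fewer reads than the partner, and the median antisense share of a pair's reads, pooled over all libraries, was 6.91%. The share was under 1% in 7 pairs. One of these was asRNA:CR45305 with RpL37A, a ribosomal protein gene, at 0.792%. It was over 50% in 10 pairs, among them asRNA:CR44981 with sky, which encodes a synaptic Rab GTPase-activating protein (89.8%), asRNA:CR45818 with Cdc37, an Hsp90 co-chaperone (86.2%), asRNA:CR44849 with NimC3, a Nimrod family gene (82.5%), and asRNA:CR43463 with Pgant35A, an O-glycosyltransferase (82.2%). High shares can rest on few partner reads. The Cdc37 pair had 3, 3, 6 and 2 reads in the wild-type heads. For asRNA:CR45042 with Gr64d and asRNA:CR46264 with CG14915 the share was 100%, with no read assigned to the partner. Reads of a partner that also lay in a gene on the same strand were left out, and their part in these shares was not tested.

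Antisense RNAs were more abundant in bodies than in heads in both genotypes. They took 0.0340%, 0.0288%, 0.0337% and 0.0328% of gene reads in the 4 wild-type head libraries and 0.100%, 0.107%, 0.0893% and 0.125% in the 4 body libraries. In mutant heads the share was 0.0340% and 0.0363%, and in mutant bodies 0.220% and 0.161%. No head library of either genotype reached the lowest body library, and both mutant bodies lay above all 4 wild-type bodies. Group means were 0.0323% ± 0.00239 (SD, n = 4), 0.105% ± 0.0150 (n = 4), 0.0351% ± 0.00164 (n = 2) and 0.191% ± 0.0416 (n = 2). Without asRNA:CR44981 the mutant body mean was 0.167%, and without the 3 members called there 0.163%, alternatives chosen after the values were seen. Over lncRNA genes the share ran from 0.510% to 3.65% in wild-type heads and from 1.14% to 2.81% in wild-type bodies, so there the tissues overlapped. In the mutant the lncRNA share was 1.19% and 1.16% in heads and 1.91% and 1.68% in bodies. These did not overlap, and the direction was that of the antisense RNAs.

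**Figure D2:**
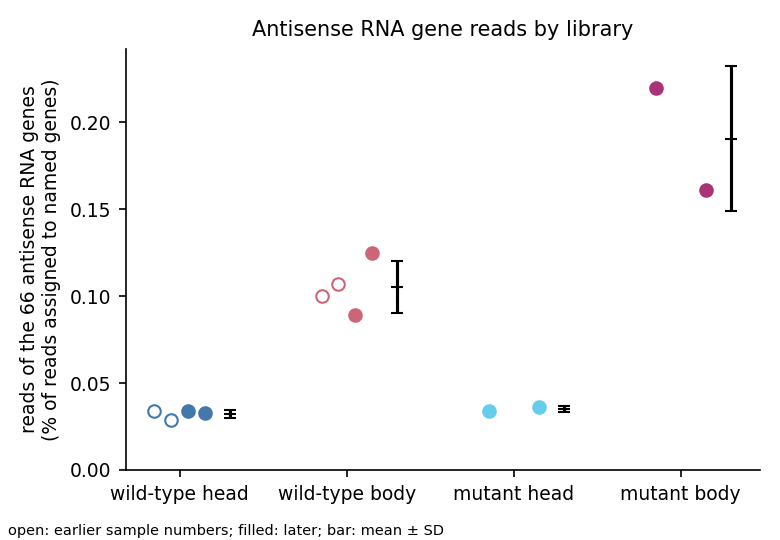
Reads of the 66 antisense RNA genes as a percentage of the reads of all named genes (y axis) in each library (points), by group (x axis), with the group mean and SD; open points are the earlier range of sample numbers. Head libraries sit between 0.0288% and 0.0363%, wild-type bodies between 0.0893% and 0.125%, and mutant bodies at 0.161% and 0.220%.

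Over single genes, 12 of the 66 had no read in any wild-type head library, and every one had reads in wild-type bodies. The median over genes of the mean level was 1.02 CPM in wild-type heads, 9.26 in wild-type bodies, 0.769 in mutant heads and 10.5 in mutant bodies. Members were picked by reads pooled over all 12 libraries, so a gene without head reads could enter through bodies alone. The count of 12 and these medians thus describe the members and not all annotated antisense RNA genes. In 28 of 66 (42.4%) all 4 wild-type heads lay below all 4 bodies, against 27.6% of the 3113 genes with at least 20 reads. All 4 heads lay above in 3 (4.55%), against 8.03%. In the mutant, both heads lay below both bodies in 54 of 66 (81.8%), against 44.3%. Among lncRNA genes the same counts were 138 of 280 in the wild type (49.3%) and 222 of 280 in the mutant (79.3%), so the direction was shared with other non-coding genes.

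**Figure D3:**
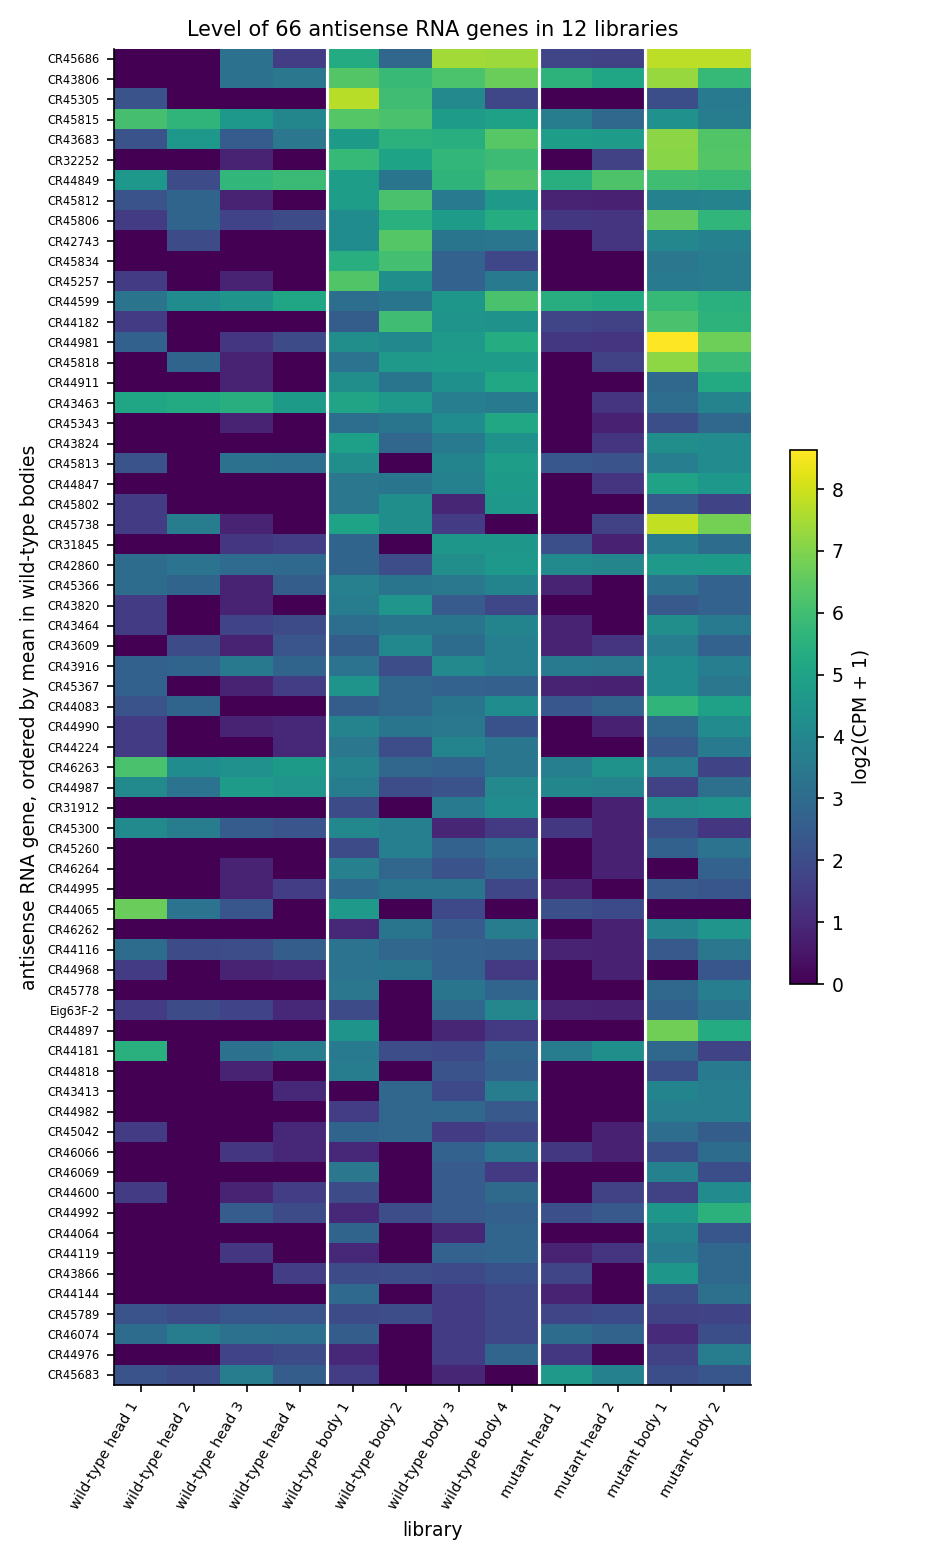
Level of each of the 66 antisense RNA genes (rows, ordered by mean in wild-type bodies) in each of the 12 libraries (columns), as log2(CPM + 1) by colour; white lines separate the groups. Head columns are mostly dark (median of gene means 1.02 and 0.769 CPM) and body columns brighter (9.26 and 10.5 CPM).

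To ask which antisense RNAs differ between wild-type heads and bodies, all named genes were tested with edgeR's quasi-likelihood test (Benjamini-Hochberg adjusted p under 0.05 over all genes tested, with the range of sample numbers as a term). The low-count filter asks for reads in as many libraries as a group holds, and 15 of the 66 passed it. A gene seen in bodies alone could pass only through its body libraries, so counts over the 15 describe them and not the whole set. Of the 15, 8 were lower and 1 higher in heads, against a background of 47.6% called (17.3% higher, 30.3% lower) among 2384 genes. The median log2 fold change was −1.46 for these 15 and 0.03 for all genes. Within the later range alone 23 of 30 tested were called, and within the earlier range alone 5 of 12. The shares of all genes called in these single-range fits are not given here, so their counts cannot be set against 47.6%. With no low-count filter all 66 could be tested, and 35 were lower and 3 higher, against a background of 39.1% (12.1% higher, 27.0% lower). That background holds every gene with a read, whereas the 66 were picked for at least 20, so the shares are of unlike sets. Of all 102 antisense RNA genes with a read in that fit, 37 were lower and 3 higher. Their share called, 39.2%, was near that of all genes.

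asRNA:CR32252 (3L, 4221704 to 4222734, minus strand) had the lowest fold change in heads. It is nested in CG43367, a coding gene, and overlaps 333 nt of its coding sequence. Its 4 wild-type body libraries had 54.4, 30.9, 51.3 and 59.3 CPM, and its heads 0, 0, 0.781 and 0. The groups did not overlap (log2 fold change −6.76, SE 0.627, edgeR adjusted p = 7.87e-05). Mutant bodies had 134.9 and 78.5 CPM and mutant heads 0 and 2.16. The partner went the other way: CG43367 was at 106 ± 25.8 CPM (SD, n = 4) in wild-type heads and 41.0 ± 15.6 in bodies (log2 fold change 1.40, edgeR adjusted p = 0.00605).

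asRNA:CR44911 (2L, 21178410 to 21179729, plus strand) is head-to-head with bur, which encodes GMP synthetase. Its bodies had 18.4, 9.27, 19.3 and 34.9 CPM and its heads 0, 0, 0.781 and 0, again without overlap (−5.58, SE 0.683, edgeR adjusted p = 1.92e-04). bur itself differed by −0.16 (edgeR adjusted p = 0.81), with 56.5 ± 62.7 and 45.8 ± 45.2 CPM.

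asRNA:CR43806 (2L, 16178318 to 16179188, minus strand) lies in Ca-alpha1D, a voltage-gated calcium channel gene. It had 78.6, 55.6, 71.5 and 102.9 CPM in bodies and 0, 0, 8.59 and 9.76 in heads (−3.93, SE 0.681, edgeR adjusted p = 0.0012). Both head libraries without a read were those of the earlier range. Ca-alpha1D had 36.3 ± 21.7 CPM in heads and 22.0 ± 8.20 in bodies (0.71, edgeR adjusted p = 0.151).

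Another 4 antisense RNAs with a lower level in heads had partners of varied kinds. asRNA:CR44981, opposite sky, had 18.4, 15.4, 24.8 and 39.3 CPM in bodies and 5.43, 0, 1.56 and 2.93 in heads (−3.19, SE 0.516, edgeR adjusted p = 7.99e-04). asRNA:CR45806, nested in CG7049, had 31.6 ± 12.2 in bodies and 3.23 ± 1.79 in heads (−3.29, SE 0.554, edgeR adjusted p = 9.91e-04). asRNA:CR45812, nested in CG12084, had 33.4 ± 26.1 and 2.56 ± 2.68 (−3.98, SE 0.705, edgeR adjusted p = 0.00136). In each of these pairs every body library exceeded every head library for the antisense RNA, while none of the partners that could be tested was called (edgeR adjusted p = 0.362 for CG7049 and 0.816 for CG12084). asRNA:CR43683, nested in CG5850, had 25.2, 46.3, 41.2 and 83.8 CPM in bodies and 3.62, 23.3, 4.69 and 9.76 in heads (−2.33, SE 0.663, edgeR adjusted p = 0.0176).

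asRNA:CR45366, head-to-head with the nucleoside transporter gene Ent1, showed the smallest called difference, with 12.6, 9.27, 10.1 and 14.0 CPM in bodies and 7.24, 5.83, 0.781 and 4.88 in heads (−1.46, SE 0.488, edgeR adjusted p = 0.0352). It was not called without wild-type head replicate 1 (adjusted p = 0.0666), head replicate 2 (0.114) or head replicate 4 (0.0704), and passed the filter in 4 of 8 such fits. asRNA:CR43683 was not called without wild-type head replicate 3 (0.0819), head replicate 4 (0.0651) or body replicate 4 (0.0652). Within the earlier range alone asRNA:CR43683 (adjusted p = 0.418) and asRNA:CR45812 (0.0695) also missed the threshold. The other 6 lower antisense RNAs were called in every fit with 1 library left out in which they passed the low-count filter: 8 of 8 fits for asRNA:CR32252, asRNA:CR43806, asRNA:CR44981 and asRNA:CR45806, 6 for asRNA:CR45812 and 5 for asRNA:CR44911.

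asRNA:CR46263 (2L, 286383 to 288292, plus strand), nested in CG3625, was the member called higher in heads. It had 70.5, 17.5, 19.5 and 25.4 CPM in heads and 13.6, 6.18, 5.5 and 9.60 in bodies, with no overlap (1.81, SE 0.423, edgeR adjusted p = 0.00641). CG3625 moved by a like amount, from 431 ± 38.0 CPM in bodies to 1803 ± 915 in heads (1.96, SE 0.330, edgeR adjusted p = 9.83e-04), and the antisense share of the pair was 1.92% ± 0.892 in heads and 1.96% ± 0.739 in bodies. Within the earlier range alone the antisense RNA had a log2 fold change of 2.07 (adjusted p = 0.162).

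Of the members with the most reads, asRNA:CR45815, asRNA:CR44849 and asRNA:CR44599 were tested and not called between tissues. asRNA:CR44599 is nested in loqs, a dsRNA-binding partner of the Dicer enzymes. It had 9.04, 17.5, 21.1 and 33.2 CPM in heads and 7.76, 9.27, 22.9 and 69.8 in bodies, so the groups overlapped widely, and loqs had 533 ± 187 and 542 ± 71.1 CPM. asRNA:CR44849 had 33.9 ± 25.4 in heads and 39.6 ± 27.9 in bodies, and asRNA:CR45815, head-to-head with CG13920, 38.6 ± 24 and 52.0 ± 27.8. For asRNA:CR45815 the earlier range was higher in both tissues (66.9 and 49.5 against 23.4 and 14.6 CPM in heads, 80.6 and 71.0 against 26.6 and 29.7 in bodies).

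The 12 members with no read in wild-type heads can be given a bound only, taking 3 counts in the whole group (0.937 CPM) as the floor. The reads of the body libraries were pooled in the same way. asRNA:CR45834, in alpha-Spec, a spectrin gene, was at least 22.0-fold higher in wild-type bodies, with 42.7, 64.9, 5.5 and 2.62 CPM there. asRNA:CR43824, nested in CG34124, was at least 19.6-fold higher and asRNA:CR44847, in the ABC transporter gene Eato, at least 16.6-fold. The other 9 had lower bounds, down to 3.57-fold at asRNA:CR44144. asRNA:CR45834 stood higher in the earlier range of bodies, whereas asRNA:CR44847 had 9.71, 9.27, 12.8 and 25.3 CPM.

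The tissue difference was next asked of the balance between strands: the ratio of antisense to partner reads was tested in 1 edgeR model over all 668 pairs of overlapping genes on opposite strands with a mean of 20 reads together and each with at least 1% of them. Of 45 antisense RNA pairs tested, 21 had a lower and 1 a higher antisense ratio in heads, against a background of 43.6% called (16.8% higher, 26.8% lower). In 7 of the 45 pairs no head library held an antisense read, and such pairs could meet the 1% limit through bodies alone, so the counts describe the pairs tested. Of the 668 pairs 536 join a pair of coding genes, whose ratio is that of the gene with fewer reads, so the split of the background has no fixed strand. In the 44 pairs of a lncRNA gene with a more read coding gene, 26 ratios were lower in heads and 0 higher (59.1%). The median log2 difference was −2.14 for the 45 antisense RNA pairs and −4.56 for those 44. Within the later range alone 23 pairs were called, and within the earlier range alone 8. The shares of all pairs called in these single-range fits are not given here, so their counts cannot be set against 43.6%. The partners themselves were called higher in 11 and lower in 12 of 52 tested, or 44.2%.

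The lowest ratio in heads was that of asRNA:CR32252 with CG43367 (log2 difference −8.28, SE 0.794, edgeR adjusted p = 1.81e-05). The antisense RNA gave 55.0% ± 6.40 (SD, n = 4) of the pair's reads in bodies and 0.20% ± 0.40 in heads. asRNA:CR45686, tail-to-tail with CG42676, gave 42.7% ± 25.3 in bodies and 1.37% ± 2.13 in heads (−6.17, SE 0.750, edgeR adjusted p = 5.13e-05). Its level was 38.8, 6.18, 172 and 167 CPM in bodies and 0, 0, 8.59 and 1.95 in heads. Body replicate 2 thus fell below head replicate 3, and it was the library with the fewest reads.

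Further pairs had a lower ratio in heads. asRNA:CR44182 with Ppt2, a palmitoyl-protein thioesterase, gave 47.1% ± 27.7 in bodies and 1.47% ± 2.94 in heads (−5.94, SE 1.22, edgeR adjusted p = 0.00202). asRNA:CR44911 with bur gave 38.3% ± 24.1 and 1.67% ± 3.33 (−5.20, SE 0.893, edgeR adjusted p = 6.08e-04). asRNA:CR45257 with Mcr, a complement-related macroglobulin gene, gave 22.3% ± 22.0 and 0.504% ± 0.694 (−5.29, SE 0.929, edgeR adjusted p = 7.01e-04). Body libraries of the earlier and later range differed in this last pair: asRNA:CR45257 had 77.6 and 18.5 CPM in the earlier bodies and 5.5 and 10.5 in the later.

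asRNA:CR45305 with RpL37A also had a lower ratio in heads and differed between the ranges (−5.65, SE 1.28, edgeR adjusted p = 0.00348). The antisense RNA had 209, 61.8, 15.6 and 2.62 CPM in bodies, while RpL37A had 353, 1010, 3343 and 3777. In heads the antisense RNA had reads in replicate 1 alone (3.62 CPM) and RpL37A had 371, 807, 4094 and 4529. In heads 4 named pairs had no antisense read: asRNA:CR45834 with alpha-Spec, asRNA:CR44847 with Eato, asRNA:CR31912 with CG9171 and asRNA:CR45778 with dUTPase, with 6.37% ± 7.18, 14.4% ± 11.7, 15.3% ± 15.8 and 9.59% ± 9.18 of the pair's reads in bodies (edgeR adjusted p = 5.58e-04, 0.00195, 0.00649 and 0.0139). asRNA:CR45778 was not called without head replicate 3 (adjusted p = 0.0557) or body replicate 3 (0.0568).

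asRNA:CR45683, which lies in introns of CG42784, was the pair with a higher ratio in heads (5.68, SE 1.56, edgeR adjusted p = 0.0111). Its level was 3.62, 2.91, 11.7 and 4.88 CPM in heads and 1.94, 0, 0.917 and 0 in bodies, from 23 and 3 reads. CG42784 had 24.2 and 21.5 CPM in later heads but 291 and 367 in earlier ones, against 440 and 743 in later bodies. In the later range alone the difference was 8.55 (adjusted p = 2.45e-04) and in the earlier it was −0.71 (0.917). The call was also lost without head replicate 4 (0.0695), body replicate 3 (0.065) or body replicate 4 (0.0649).

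**Figure D4:**
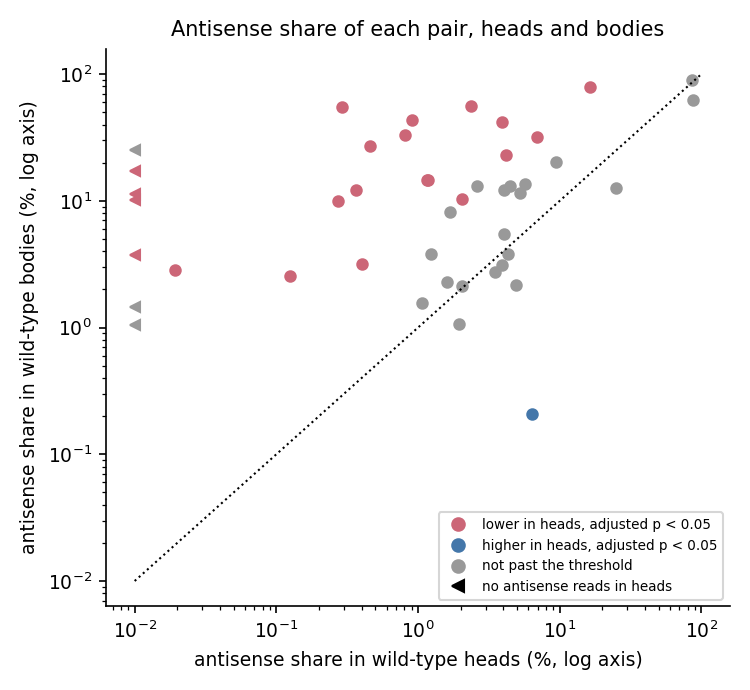
Antisense share of the reads of each of the 45 antisense RNA and partner pairs tested, pooled over wild-type heads (x axis, %) and over wild-type bodies (y axis, %), on log axes with the line of equality; triangles had no antisense read in heads. Most pairs lie above the line, 21 called lower (red) and 1 higher (blue) in heads.

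To ask whether the C4 allele changes antisense RNAs in heads, mutant and wild-type heads of the later range were compared within 1 fit of the 8 later libraries, in which 45 of the 66 passed the low-count filter. A gene could pass through any 1 of the 4 groups, mutant bodies among them, so counts and medians over the 45 describe the genes tested and not the set of 66. asRNA:CR43463 (2L, 14359285 to 14361303, minus strand) was called, against a background of 1.15% (0.649% higher, 0.505% lower) among 2774 genes. It lies wholly over exon sequence of Pgant35A, 1896 nt of it coding. It had 42.2 and 25.4 CPM in later wild-type heads, 32.6 and 37.9 in the earlier ones, and 0 and 1.44 in mutant heads (log2 fold change −5.26, SE 0.836, edgeR adjusted p = 0.0284). Bodies lay closer, with 11.9 and 10.5 CPM in later wild-type and 7.56 and 13.6 in mutant libraries.

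The call for asRNA:CR43463 was lost when any of 6 libraries was left out: wild-type head replicate 3 (adjusted p = 0.204) or 4 (0.0783), wild-type body replicate 3 (0.108) or 4 (0.105), and mutant head replicate 1 (0.168) or 2 (0.0949). It held in heads alone (edgeR adjusted p = 0.0114) and with DESeq2 (adjusted p = 3.73e-04), but both fits also called more of all genes than the main fit. The test of a different genotype effect in the 2 tissues gave −5.18 (SE 1.09, edgeR adjusted p = 0.568). Pgant35A had too few reads to be tested, with 5.10 ± 2.14 CPM in wild-type heads and 4.30 ± 2.02 in mutant heads.

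Of the 45 tested, 5 had no read in any later head library. Over the other 40 the log2 fold change had a median of 0.11, above 0 in 21 and below in 19, beside a median of 0.04 for all genes. Both mutant heads lay above both later wild-type heads in 7 of 66 (10.6%, against 24.5% of all genes) and below in 14 (21.2%, against 25.6%). asRNA:CR43806 had 47.5 and 33.1 CPM in mutant heads and 8.59 and 9.76 in later wild-type heads, which did not overlap, and it did not pass the threshold (2.17, SE 0.614, edgeR adjusted p = 0.188). In heads alone, a fit that also called a much larger share of all genes, its edgeR adjusted p was 0.0119. asRNA:CR43683 had 27.9 and 25.9 against 4.69 and 9.76 CPM (1.98, SE 0.579, edgeR adjusted p = 0.207; 0.0396 in heads alone). No partner was called of 58 tested, and no antisense ratio of 52 (background 0 of 693). limma on log2 ratios also called 0, whereas edgeR over all 12 libraries with the replicate number as a block called 5. The share of all pairs called in that fit is not given here, so the 5 cannot be set against 0 of 693. In the expression test of heads that block also called far more of all genes than the main fit.

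In mutant bodies 3 of the 45 were higher than in later wild-type bodies and none lower. The background was 2.63% called (1.41% higher, 1.23% lower) among 2774 genes. The median log2 fold change was 0.30 for the 45 and 0 for all genes. Here too a gene could pass the filter through mutant bodies alone, so this count and this median describe the genes tested. Both mutant bodies lay above both later wild-type bodies in 24 of 66 (36.4%, against 22.6% of all genes) and below in 4 (6.06%, against 20.5%). Among lncRNA genes the counts were 117 of 280 above (41.8%) and 46 below (16.4%). None of the 3 calls was made without wild-type body replicate 3 or without replicate 4, and all 3 were made without mutant body replicate 2. Such fits leave 1 library in a group. Over all genes, too, far fewer calls were made without either wild-type library and far more without the mutant one.

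asRNA:CR45738 (3L, 4240069 to 4240505, minus strand) is head-to-head with Sqor, which encodes sulfide quinone oxidoreductase of mitochondria. It had 227 and 113 CPM in mutant bodies and 1.83 and 0 in later wild-type bodies (7.41, SE 1.03, edgeR adjusted p = 0.0137). Earlier wild-type bodies had 31.1 and 18.5 CPM, between those groups. Sqor had 563 and 221 CPM in mutant and 250.2 and 296 in later wild-type bodies (0.56, edgeR adjusted p = 0.592). The antisense ratio of the pair rose (6.94, SE 1.10, edgeR adjusted p = 0.02), from 0.364% ± 0.514 (SD, n = 2) of the pair's reads in later wild-type bodies to 31.3% ± 3.62 (n = 2) in mutant bodies. Over all 4 wild-type bodies it was 4.21% ± 4.52. The expression call was lost without wild-type body replicate 3 (adjusted p = 0.143) or 4 (0.109), and the ratio call likewise (0.11 and 0.0986). With all 12 libraries and the replicate number as a block the ratio difference was 2.40 (0.0655).

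asRNA:CR44897 (2L, 1381211 to 1382796, plus strand) is nested in robo2, an axon guidance receptor gene. It had no reads in the 6 head libraries, 21.4, 0, 0.917 and 1.75 CPM in wild-type bodies, and 108 and 38.5 in mutant bodies (5.68, SE 0.910, edgeR adjusted p = 0.0412). robo2 also had more reads there, with 42.1 and 12 CPM against 2.75 and 3.49, but did not pass the threshold (3.08, SE 0.766, edgeR adjusted p = 0.0835), nor did the ratio (2.67, edgeR adjusted p = 0.29). The call for asRNA:CR44897 was lost without wild-type body replicate 3 (0.39) or 4 (0.215), without mutant body replicate 1 (0.0602), in bodies alone (0.055) and, over all 12 libraries, with the replicate number as a block (0.0599).

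asRNA:CR44992 (2L, 8703475 to 8705450, plus strand) is nested in Hnf4, a nuclear receptor gene. It had 22.7 and 45.7 CPM in mutant bodies and 0.971, 3.09, 4.58 and 5.23 in wild-type bodies, with no overlap (2.76, SE 0.538, edgeR adjusted p = 0.0426). Hnf4 had 85.3 and 92.2 CPM in mutant bodies against 158 and 247 in later wild-type ones (−1.18, edgeR adjusted p = 0.104). The ratio rose (3.88, SE 0.605, edgeR adjusted p = 0.02), from 2.45% ± 0.529 (SD, n = 2) of the pair's reads in later wild-type bodies to 27.1% ± 8.58 (n = 2). The expression call was lost when any of the later wild-type or mutant head libraries was left out (adjusted p between 0.0717 and 0.372), and was made without either mutant body library. The ratio call was lost without wild-type body replicate 3 (0.173) or 4 (0.111).

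asRNA:CR44981, opposite sky, reached the highest level of any member: 397 and 104 CPM in mutant bodies, against 24.8 and 39.3 in later and 18.4 and 15.4 in earlier wild-type bodies. The groups did not overlap, but the difference missed the threshold (3.02, SE 0.657, edgeR adjusted p = 0.0586). It passed with DESeq2 size factors and Wald test (adjusted p = 0.00276) and without mutant body replicate 2. Both fits also called more of all genes than the main fit. In mutant heads it had 1.64 and 1.44 CPM. asRNA:CR45818, in Cdc37, had 145 and 57.7 against 25.7 and 26.2 CPM (1.98, SE 0.662, edgeR adjusted p = 0.163), and asRNA:CR44182 had 70.2 and 46.5 against 21.1 and 20.1 (1.5, SE 0.437, edgeR adjusted p = 0.131).

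The most read member, asRNA:CR45686, had 219 and 217 CPM in mutant bodies and 172 and 167 in later wild-type ones, and was not called. Of the 64 partners 58 were tested in bodies, and 1 was called higher. Antisense ratios were called higher in 2 of 52 pairs, those of Sqor and Hnf4, against a background of 0.866% (0.577% higher, 0.289% lower) among 693 pairs. A difference of the genotype effect between heads and bodies was called for none of the 45 members and for 0 of 2774 genes by edgeR. DESeq2 called 1 of the members, and the share of all genes it called is not given here.

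The reads of some antisense RNAs lay at different poly(A) sites by tissue or genotype. These genes were picked after the values were seen and are described without a test. asRNA:CR43806 had a pair of main sites in an intron of Ca-alpha1D, at −398 and −176 nt from the gene's end (minus marks upstream). Transcripts of this gene have several annotated ends, and the site at −398 nt lies 6 nt past another of them. The site at −398 nt held 218 reads (73.9%) in wild-type bodies, 77 (36.5%) in mutant bodies and 0 in heads of either genotype. The site at −176 nt held 95.2% of the reads in both wild-type and mutant heads (20 and 99 reads), 16.3% in wild-type bodies and 59.7% in mutant bodies. Earlier wild-type bodies had no read at it, while later ones had 21 and 27.

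asRNA:CR45738 had reads at one site in mutant bodies alone. A position at −232 nt from its annotated end, in an intron of Sqor, held 174 and 74 reads in the mutant body libraries and 0 in each of the other 10. A position 12 nt past the annotated end held 31, 5, 0 and 0 reads in wild-type bodies and 18 and 53 in mutant bodies. The wild-type body reads at this latter position thus came from the earlier range alone. The later wild-type bodies, to which mutant bodies were compared, had none there. At asRNA:CR43463 the site at the annotated end held 51 of the wild-type head reads (45.9%), and a site 901 nt downstream, past Pgant35A, held 28 (25.2%), 0 in wild-type bodies and mutant heads and 1 in mutant bodies. Mutant heads had 2 reads of this gene in all, both at the annotated end. asRNA:CR44849 used the position close behind bgm for 98.6% of wild-type head and 99.4% of mutant head reads, and for 66.1% and 56.2% in bodies, where sites 21 and 143 nt past its annotated end held 31 and 26 wild-type reads.

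**Figure D5:**
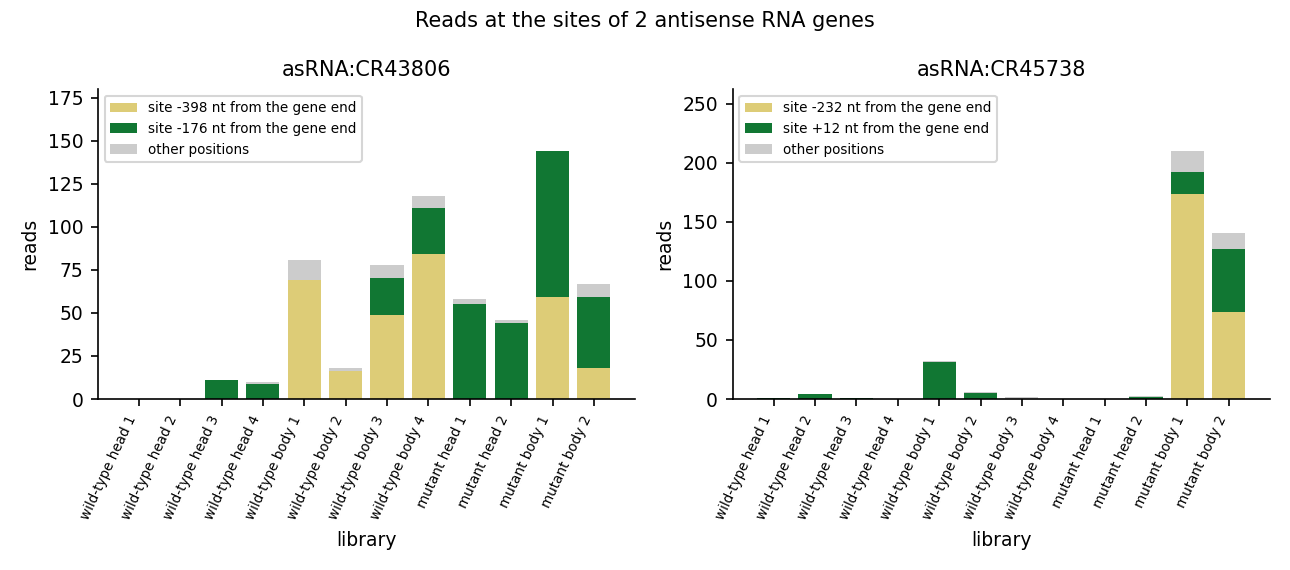
Reads (y axis) at the main poly(A) sites of asRNA:CR43806 and asRNA:CR45738 in each of the 12 libraries (x axis), stacked by site, with distance from the gene's end in nt in the key. The site at −398 nt of asRNA:CR43806 has reads in bodies only, and the site at −232 nt of asRNA:CR45738 has 174 and 74 reads in the mutant bodies and none elsewhere.

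Genes whose products act on paired or antisense RNA were looked at beside the members. Of 6 small RNA genes 2 lie in the regions, r2d2, a Dicer partner, and loqs, and both were tested in all comparisons with 0 called. Of 10 genes of the nuclear exosome and its cofactors, the machinery that degrades many non-coding RNAs, 4 lie in the regions (Rrp40, Mtr4, Ski6 and Csl4) and 0 were called. Between mutant and wild-type bodies the log2 fold change was 0.43 for loqs, 0.09 for r2d2 and −0.33 for the helicase gene Mtr4, and between heads 0.13, −0.62 and −0.00458. Of the male markers 7 of 7 were lower in wild-type heads (median −6.39), and 1 was lower in mutant bodies (median −0.12). All 4 photoreceptor genes were higher in wild-type heads and 0 were called in either genotype comparison. Of 3 fat body genes 2 were tested, 0 were called, and their median between mutant and wild-type bodies was −3.57. Wild-type body replicate 3 alone reached 15200 CPM over this list. The part of any of these lists in the antisense RNA values was not tested.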

How the data were processed

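The deposited files hold counts: the authors gave, for each library, the number of reads at every poly(A) position by strand. Alignment was by Bowtie2, and positions are those of build BDGP5, per the submitters' processing notes. How tails were filtered, and which of 3′READS and 3′READS+ made each library, the labels do not say. No coordinates were converted. Genes were named from the BDGP6 annotation where both builds coincide: positions with at least 200 pooled reads lay within 10 nt of an annotated end in 61.7% of cases on 2L and 57.3% on 3L, against 0.256% and 0.227% after a shift of 5000 nt. Genes elsewhere, RpII215 on X among them, were not analysed by name.

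A read was assigned by strand to the gene whose span, or 1000 nt downstream, held its position. Of the reads in the regions 93.6% went to 1 gene, 5.69% lay in overlapping same-strand genes and were left out, and 0.729% were intergenic. Positions within 24 nt were joined into sites. Differences were tested with edgeR 4.0.16 in R 4.3.3 (TMM, filterByExpr, quasi-likelihood test) over all named genes, or over all overlapping pairs with a term per library. Heads and bodies were compared over the 8 wild-type libraries, with the range of sample numbers in the model, and genotypes over the 8 libraries of the later range in 4 groups. DESeq2 1.42.0 and limma 3.58.1 (0.5 reads added) served as alternatives, with other filters, read assignments, blocks and left-out libraries. The main edgeR fits, apart from that of ratios in mutant heads, were also run on simulated data with known changes. The alternatives were not. Python 3.11.15, numpy 2.4.6 and pandas 2.3.3 were also used.

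The members and the gene lists were chosen with earlier results of these data known. Named members are, per comparison, up to 10 called in each direction by fold change, and the 10 with the most reads. Replicate numbers were checked for pairing by the correlation of deviations from the group means over 2853 genes. Same-numbered wild-type heads and bodies had r = 0.724, 0.717, 0.735 and 0.672, but these deviations also hold the difference between the ranges. Crossed replicates had 0.142 and 0.160 in the earlier range and 0.708 and 0.660 in the later. Pairing by number thus showed in the earlier range only, and the replicate block served as an alternative to the range term. Mutant heads and bodies had 0.0249. Genome sequence was not used here. Reads without molecular identifiers are not independent molecules, so bounds cover counting error only. At a median of 82.5 reads over 12 libraries, most members are measured by a few reads per library.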

Additional observations from a re-analysis of the deposited data

Results flagged for a closer look

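The 26 named members gave 52 groups of 4 wild-type libraries. In 9 of them 1 library lay apart from the other 3 by Dixon's criterion for an outlying value. Chance flags about 1 in 20 groups of continuous values. A group with reads in 1 library and none in the other 3 is always flagged, so the 9 cannot be set against that rate. Of these 9, 7 were in heads, and 6 of those rest on 1 to 4 reads. asRNA:CR32252 (0.781 CPM) and asRNA:CR44911 (0.781 CPM) each had 1 read in head replicate 3 and none in the other heads. asRNA:CR44182 (1.81 CPM, 1 read) and asRNA:CR45305 (3.62 CPM, 2 reads) had reads in head replicate 1 alone. Head replicate 2 was apart for asRNA:CR45738 (11.7 CPM, 4 reads, others up to 1.81) and asRNA:CR45818 (5.83 CPM, 2 reads, others up to 0.781). Head replicate 1 was apart for asRNA:CR46263 (70.5 CPM, 39 reads, others 17.5 to 25.4). Body replicate 1 was apart for asRNA:CR44897, at 21.4 CPM (22 reads) with the others at 0 to 1.75, and for asRNA:CR45818, at 8.73 CPM (9 reads) with the others at 24.7 to 26.2.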

How the results depend on the processing

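Between wild-type heads and bodies 9 antisense RNAs were called. The count was 38 with no low-count filter, 4 with reads in the gene span only, 5 in the earlier and 23 in the later range of sample numbers alone, and 6 to 21 with 1 library left out (20 without head replicate 1, 21 without head replicate 2, 18 without head replicate 4, 6 without body replicate 4). With the replicate block it was 9, and 22 antisense ratios became 26, all 22 among them. The block changed no call of a named member in the tissue contrast. Ratios called numbered 9 with the gene span only, 8 in the earlier range alone and 16 to 23 with 1 library left out. For these tissue fits the share of all genes or pairs called is given above only for the main fits and with no low-count filter. The other counts thus describe the members alone. For mutant heads the count of 1 became 0 with the gene span only, 3 with heads alone and 0 to 2 with 1 library left out. For mutant bodies 3 became 1 with bodies alone and 0 to 8 with 1 library left out, and 2 ratios became 0 to 13 (0 without wild-type body replicate 3 or 4, 13 without mutant body replicate 2). All 12 libraries with a replicate block, where replicate numbers 1 and 2 join different ranges, gave 5 in heads and 8 in bodies, both for expression and for ratios. With that block the shares called of all pairs, and of all genes in bodies, are not given here. No ratio in heads was called with any 1 library left out (0 to 0). The genotype effect differed between tissues for 1 member with DESeq2 and for 0 to 1 with 1 library left out. Of all 2774 genes 32 were called in mutant heads (113 with DESeq2, 375 of 2050 with heads alone, 676 of 2885 with the block) and 73 in mutant bodies (213 with DESeq2, 7 of 2931 without wild-type body replicate 3, 10 of 2913 without replicate 4, 901 of 2894 without mutant body replicate 2). There were 29 members with at least 100 pooled reads and 40 counted in the gene span only. Signs turned for the ratios of asRNA:CR45683 between tissues (−0.71 in the earlier range), asRNA:CR43683 in mutant heads (−0.14 with the block) and asRNA:CR44981 in mutant bodies (−1.33 with the block). The cause of these changes was not tested. Of the values of single members under an alternative, 453 kept direction and side of the threshold, 47 lost and 12 gained a call, and 3 turned. Low reads per member limit what could be tested: 15 of 66 between tissues and 45 between genotypes.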

Other observations

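At asRNA:CR42860, an antisense RNA gene nested in sls, which encodes a titin-like protein of the sarcomere, the site 14 nt past the annotated end held 39.1% of reads in wild-type heads, 72.2% in wild-type bodies and 92.5% in both mutant heads and mutant bodies, from 9, 39, 37 and 49 reads. A site at −1050 nt from that end held 30.4%, 25.9%, 2.50% and 1.89%. In the later range, to which the mutant libraries belong, that first site held 6 and 2 reads in wild-type heads and 16 and 21 in wild-type bodies. This gene was chosen after its values were seen, and the difference was not tested.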
